A study of Homo sapiens with 24 samples.

Results

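Non-fibrillar collagens are the collagen chains that form networks, beaded filaments, anchoring fibrils, fibril coats and cell-surface proteins in place of banded fibrils. The 33 genes of this family examined here were found through the RefSeq transcript given for each array probe, and they were 33 of the 20503 genes with a RefSeq symbol on the arrays. Of these, 27 were among the 24647 genes tested, of which 16000 had a RefSeq symbol. The rest were probe targets without such a symbol, each counted as a gene under its array name, and they enter every share of all genes below. Most of the chains that changed with FZD8_CRD were lowered by it, while COL4A1 was raised. Total RNA of HepaRG cells was measured on 24 one-colour Agilent arrays, 3 for each of 8 conditions. They follow what Wnt3a does in these cells and what remains of it with siRNA against β-catenin or with the Wnt-binding FZD8_CRD. HepaRG is an established human liver line whose cells act as bipotent progenitors of hepatocyte-like and biliary-like cells, and the labels class it as hepatocellular carcinoma. Cultures were repeated 3 times according to the methods text, but it is a single line. P-values therefore measure only the spread between replicate arrays of this line, which holds differences between array slides too.

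Every condition shared serum-free HepaRG medium with 0.1% bovine serum albumin. Untreated cells received no further agent, and Wnt3a cells received mouse recombinant Wnt3a, a ligand of frizzled receptors, at 200 ng/ml for 72 h. Control siRNA cells and CTNNB1 siRNA cells were electroporated with 80 pmol of a negative control siRNA or of an siRNA against CTNNB1, the gene of β-catenin, and each was kept without or with the same dose of Wnt3a. FZD8_CRD cells were not transfected and received mouse FZD8_CRD, the soluble Wnt-binding domain of frizzled 8, at 300 ng/ml, without or with Wnt3a. Transfected cells were also detached and pulsed, so their comparison with untreated cells holds that handling too.

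Collagens are trimers of alpha chains that cells modify, fold and secrete into the matrix. Type IV chains build the sheet-like network of basement membranes, and in the liver they lie around bile ducts, vessels and nerves and, more thinly, along the sinusoids. Type XVIII is a heparan sulfate collagen of the same sheets that hepatocytes make, type VI forms filaments around cells, and the fibril-associated types coat the banded fibrils that build up in a scarred liver.

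Levels below are log2 intensities relative to the 75th percentile of the same array, so 0 is that percentile and a step of 1 is a doubling; -6.13 is the detection floor. Values are listed in the order of replicates 1, 2 and 3, and each replicate number was 1 slide of 8 arrays that held every condition once. Changes are differences of group means of 3 arrays, tested with limma over all genes, and a gene is called at a Benjamini-Hochberg adjusted p under 0.05. In brackets stand the log2 change, its standard error (SE) and the adjusted p; members called with all arrays moved the same way in 3 of 3 slides unless another number is given. Where a range of adjusted p passes 0.05 and no array is named, another setting or leaving out a whole slide lost the call.

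The knocked-down gene checked the labels. CTNNB1 stood at 3.35, 3.37 and 3.51 with control siRNA and at 0.26, 0.35 and 0.52 with CTNNB1 siRNA. With Wnt3a it stood at 3.39, 3.62 and 3.67 with control siRNA and at 0.33, 0.52 and 0.77 with CTNNB1 siRNA. The CTNNB1 siRNA arrays lay far below all others with no overlap. RNF43 and AXIN2, chosen to check the Wnt response, gave a mixed picture with FZD8_CRD. Wnt3a raised RNF43 by 0.731 in untransfected cells (limma adjusted p = 0.00054) and by 0.805 with FZD8_CRD (0.000217). With Wnt3a present, FZD8_CRD changed RNF43 by -1.226 (2.3e-07). AXIN2 rose by 0.366 with Wnt3a in untransfected cells (0.0453). Its means were -0.212 with FZD8_CRD and -0.082 with FZD8_CRD plus Wnt3a.

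The third FZD8_CRD array without Wnt3a lay furthest from its partners, though by a narrow margin. Over all genes its median absolute difference from them was 0.25, the highest of the 24 arrays, whose lowest was 0.09. Next came the third (0.243) and the second (0.238) Wnt3a array. The third FZD8_CRD array differed more than 2-fold from its partners for 5.02% of genes and 3 of the tested collagens. For the second Wnt3a array these were 3.87% and 2. COL8A1 was at 4.61, 4.41 and 2.89 on the FZD8_CRD arrays, COL4A6 at 4.13, 4.01 and 2.72 and COL12A1 at 4.42, 4.63 and 3.33, so the third array was the low one for each of these chains. Calls for FZD8_CRD without Wnt3a and for Wnt3a with FZD8_CRD are given with and without it.

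Hepatocyte and biliary markers were the bright ones. All 10 hepatocyte markers were tested, 9 of them were well above background on all 24 arrays, and ALB, the main plasma protein, made up 58.1% of their summed level. That sum, in units of the 75th percentile, was 1520, 1130 and 794 in untreated cells, 415, 382 and 398 with control siRNA, 635, 481 and 610 with CTNNB1 siRNA and 374, 253 and 372 with FZD8_CRD. With Wnt3a it was 923, 402 and 933 in untransfected cells, 272, 195 and 266 with control siRNA, 287, 395 and 504 with CTNNB1 siRNA and 397, 389 and 383 with FZD8_CRD. The untreated condition had the highest mean, and transfection or FZD8_CRD went with lower sums. Of 7 biliary and progenitor markers 5 were tested, led by KRT19 with 77.8% of a sum that averaged 327 to 444 per condition and was 453, 456 and 422 with FZD8_CRD plus Wnt3a against 340, 372 and 356 with Wnt3a, while PROM1 was well above background on no array.

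Of 11 fibroblast and stellate markers 10 were tested, led by DCN with 57.5%, and THY1 was well above background on no array. Their sum was 49.9, 69.1 and 58 in untreated cells, 95.1, 87.8 and 97.3 with Wnt3a, 45.4, 51.7 and 37.7 with control siRNA and 62.3, 61.4 and 57.1 with control siRNA plus Wnt3a. It was 24.9, 22.8 and 21 with CTNNB1 siRNA, 25.6, 25.4 and 24.5 with CTNNB1 siRNA plus Wnt3a, 39.6, 36.9 and 30.5 with FZD8_CRD and 39.6, 38.1 and 38.5 with FZD8_CRD plus Wnt3a. The sum was highest with Wnt3a alone and lowest with CTNNB1 siRNA, without overlap between those groups. Endothelial markers (5 of 7 tested, KDR at 91.7%, CLDN5 and ERG on no array) summed to 0.783 to 4.22 per array, with means of 3.72 in untreated cells and 1.5 with FZD8_CRD (2.84 and 0.853 with Wnt3a, no overlap in either), and leukocyte markers (4 of 7 tested, CD68 at 53.4%, MS4A1 on no array) to 2.79 to 6.75. Leukocyte means were 4.88 with control siRNA and 3.01 with CTNNB1 siRNA (5.06 and 3.17 with Wnt3a), and 5.52 in untreated cells and 3.56 with FZD8_CRD (5.57 and 3.94 with Wnt3a), without overlap in these pairs. The part of these marker shifts in the collagen changes was not tested, and in bulk RNA fewer cells of a type and less RNA per cell cannot be told apart.

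Most of the family was measurable, from the basement membrane chains COL4A2 and COL18A1, well above background throughout, down to chains near the floor. Of the 27 tested chains, COL4A3 was well above background on 18 arrays, COL6A3 on 4 and the remaining ones on all 24 arrays by at least 1 probe. The 6 chains not tested were COL6A5, COL6A6, COL15A1 and COL22A1, with no array well above background, COL25A1 with 1 array and COL19A1 with 2.

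The 6 type IV chains sit head to head as 3 gene pairs, COL4A1 with COL4A2 on chromosome 13, COL4A3 with COL4A4 on chromosome 2 and COL4A5 with COL4A6 on the X chromosome. Each pair is transcribed outwards from a shared promoter region, and the RefSeq start sites (GRCh38.p14) lie 127, 419 and 380 bases apart. To compare partners, RefSeq promoter windows, 250 bases before to 50 after a start, are printed here. The window of COL4A2, chr13:110307034-110307333 on the plus strand, shares 226 bases with that of COL4A1, which is not printed. COL4A3 is given from chr2:227164374-227164673 (plus), COL4A5 from chrX:108439588-108439887 (plus) and COL4A6 from chrX:108439409-108439708 (minus).

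Capitals mark the CCAAT box (CCAAT), the GC box (GGGCGG) and the CTC box (CCCTCCCC or CCCTTCCCC), on either strand.
COL4A2: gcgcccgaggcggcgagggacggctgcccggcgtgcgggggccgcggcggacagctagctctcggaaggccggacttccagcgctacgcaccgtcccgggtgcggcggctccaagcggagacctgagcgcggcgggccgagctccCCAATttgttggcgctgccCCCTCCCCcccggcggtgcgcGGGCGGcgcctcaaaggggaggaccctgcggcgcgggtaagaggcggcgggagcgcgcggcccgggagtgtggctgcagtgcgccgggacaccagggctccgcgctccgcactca
COL4A3: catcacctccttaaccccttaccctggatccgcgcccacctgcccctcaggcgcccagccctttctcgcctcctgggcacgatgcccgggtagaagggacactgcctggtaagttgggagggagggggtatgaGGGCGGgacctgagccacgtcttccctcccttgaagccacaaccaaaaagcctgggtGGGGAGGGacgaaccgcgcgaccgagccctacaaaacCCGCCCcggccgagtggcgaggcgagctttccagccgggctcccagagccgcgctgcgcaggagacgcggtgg
COL4A5: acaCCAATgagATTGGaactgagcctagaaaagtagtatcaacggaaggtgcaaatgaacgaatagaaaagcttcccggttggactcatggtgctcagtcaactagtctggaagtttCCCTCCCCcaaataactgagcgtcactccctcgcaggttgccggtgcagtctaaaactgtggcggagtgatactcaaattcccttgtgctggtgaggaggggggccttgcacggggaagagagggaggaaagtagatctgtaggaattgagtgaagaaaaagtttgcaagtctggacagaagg
COL4A6: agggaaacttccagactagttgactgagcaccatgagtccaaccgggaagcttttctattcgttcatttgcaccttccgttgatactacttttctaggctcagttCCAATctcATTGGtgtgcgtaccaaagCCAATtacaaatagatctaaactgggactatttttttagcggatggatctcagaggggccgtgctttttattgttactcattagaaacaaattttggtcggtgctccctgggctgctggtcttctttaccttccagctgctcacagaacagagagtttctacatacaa

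The COL4A1 and COL4A2 windows held a CCAAT box, a GC box and a CTC box in the bases they share, and COL4A1 a second GC box outside them; that of COL4A3 held GC boxes and a CTC box, and those of COL4A5 and COL4A6 held the same 2 CCAAT boxes, with a CTC box besides in COL4A5 and another CCAAT box in COL4A6. The COL4A4 window, not printed, held none of the searched letters. The TCF/LEF letters bound by β-catenin's partners (CTTTGWW, W being A or T, either strand) occurred in none of the type IV windows printed. Among the 26 members with a window they occurred in COL10A1, COL13A1, COL15A1, COL17A1 and COL26A1. Of all 35116 windows of this length, 13.8% held the TCF/LEF letters, 34.6% the CCAAT box, 45% the GC box and 15.6% the CTC box. A match describes letters only.

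COL4A1, a chain of the common type IV trimer found in nearly all basement membranes, was lowest in untreated cells and highest with FZD8_CRD plus Wnt3a. Without Wnt3a, COL4A1 was at 0.79, 1 and 0.96 in untreated cells, 1.75, 1.92 and 1.47 with control siRNA, 1.72, 1.77 and 1.61 with CTNNB1 siRNA and 1.65, 1.71 and 2.46 with FZD8_CRD. With Wnt3a, COL4A1 was at 1.48, 2.38 and 1.11 in untransfected cells, 2.17, 2.53 and 2.07 with control siRNA, 2.64, 2.38 and 2.21 with CTNNB1 siRNA and 3.01, 3.04 and 2.76 with FZD8_CRD. Every untreated array lay below all other arrays and every FZD8_CRD plus Wnt3a array above them, while in each of the 4 pairs the Wnt3a arrays lay above those without it. FZD8_CRD raised COL4A1 2.03-fold over untreated cells (1.02, SE 0.24, adjusted p = 0.00188) and 2.42-fold over Wnt3a cells (1.28, SE 0.24, adjusted p = 0.000339). Without the third FZD8_CRD array the first of these changes was 0.76 (adjusted p = 0.016). For that change the alternatives gave adjusted p of 0.00015 to 0.102.

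Wnt3a raised COL4A1 2-fold in the presence of FZD8_CRD (0.998, SE 0.24, adjusted p = 0.0142), and by 1.26 (adjusted p = 0.00084) without the third FZD8_CRD array. For this Wnt3a effect on COL4A1 the alternatives gave adjusted p of 0.00084 to 0.625, with the call lost without the first (0.12) or the second (0.109) FZD8_CRD array or the first (0.06) or the second (0.0631) FZD8_CRD plus Wnt3a array. Control siRNA cells had 1.74-fold the untreated level (0.80, SE 0.24, adjusted p = 0.0214). For this transfection effect on COL4A1 the alternatives gave adjusted p of 0.00314 to 0.309, with the call lost without the first (0.0866) untreated array or the first (0.0622) or the second (0.0879) control siRNA array. In untransfected cells the change with Wnt3a missed the threshold (0.74, SE 0.24, adjusted p = 0.0729) and passed it with the slide as a block (adjusted p = 0.0425), without the third FZD8_CRD array (0.0364) and without the third Wnt3a array (0.00997), the range over alternatives being 0.00627 to 0.964. The second Wnt3a array, at 2.38, lay far above the first (1.48) and the third (1.11). After CTNNB1 siRNA the change with Wnt3a was 0.71 (adjusted p = 0.297).

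COL4A2, the other chain of the common trimer, moved over a narrower span. COL4A2 stood at 4.87, 5.27 and 5.12 in untreated cells, 5.71, 5.69 and 5.43 with control siRNA, 5.76, 5.82 and 5.64 with CTNNB1 siRNA and 5.45, 5.42 and 5.56 with FZD8_CRD. With Wnt3a, COL4A2 stood at 5.50, 6.18 and 5.45 in untransfected cells, 5.95, 6.17 and 5.87 with control siRNA, 6.15, 6.05 and 5.97 with CTNNB1 siRNA and 6.11, 6.03 and 5.85 with FZD8_CRD. Wnt3a raised COL4A2 1.54-fold in untransfected cells (0.63, SE 0.15, adjusted p = 0.0177). For COL4A2 and Wnt3a alone the alternatives gave adjusted p of 0.00467 to 0.55, with the call lost without the first (0.1) untreated array or the second (0.13) Wnt3a array. Without the second Wnt3a array COL4A2 changed by 0.39. With FZD8_CRD present, Wnt3a raised it 1.43-fold (0.52, SE 0.15, adjusted p = 0.0327), or by 0.56 (adjusted p = 0.0213) without the third FZD8_CRD array. For COL4A2 and Wnt3a with FZD8_CRD the alternatives gave adjusted p of 0.00396 to 1, with the call lost without the first (0.153) or the second (0.16) FZD8_CRD array or the first (0.135) or the second (0.105) FZD8_CRD plus Wnt3a array.

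COL4A2 was 1.44-fold higher with control siRNA than in untreated cells (0.53, SE 0.15, adjusted p = 0.0132). For COL4A2 and transfection the alternatives gave adjusted p of 0.000961 to 0.612, with the call lost without the first (0.091) untreated array or the first (0.0564) or the second (0.0521) control siRNA array. The rise with FZD8_CRD over untreated cells was smaller, 1.31-fold (0.39, SE 0.15, adjusted p = 0.0363), and was not called without the third FZD8_CRD array, at 0.35 (adjusted p = 0.101). For COL4A2 and FZD8_CRD the alternatives gave adjusted p of 0.00443 to 0.995, with the call lost without the first (0.181) or the third (0.0583) untreated array or the first (0.0625), the second (0.056) or the third (0.101) FZD8_CRD array.

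COL4A3, a chain of the trimer of kidney and lung basement membranes, was a dim gene that transfection lowered. COL4A3 was at -4.30, -4.40 and -4.27 in untreated cells, -5.64, -5.06 and -6.13 with control siRNA, -5.20, -5.87 and -5.71 with CTNNB1 siRNA and -4.56, -4.57 and -4.70 with FZD8_CRD. With Wnt3a, COL4A3 was at -4.28, -3.42 and -3.84 in untransfected cells, -4.90, -5.05 and -5.59 with control siRNA, -5.90, -6.13 and -5.65 with CTNNB1 siRNA and -5.50, -4.83 and -4.77 with FZD8_CRD. It was well above background on 1 of 3 control siRNA arrays, 2 of 3 control siRNA plus Wnt3a arrays and 0 of 3 CTNNB1 siRNA plus Wnt3a arrays, so levels and changes there are partly limits and no fold is given for them. Control siRNA lowered COL4A3 against untreated cells (-1.29, SE 0.28, adjusted p = 0.0024) and, with Wnt3a in both groups, against Wnt3a cells (-1.34, SE 0.28, adjusted p = 0.00795). For COL4A3 without Wnt3a the alternatives gave adjusted p of 0.00148 to 0.0706. For COL4A3 with Wnt3a the alternatives gave adjusted p of 0.00476 to 0.176. FZD8_CRD plus Wnt3a left 0.439 of the level with Wnt3a alone (-1.19, SE 0.28, adjusted p = 0.00223).

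COL4A4, which pairs with COL4A3 in that trimer, was likewise lower after transfection, by less. COL4A4 was at 0.66, 0.53 and 0.50 in untreated cells, 0.21, 0.29 and -0.02 with control siRNA, 0.00, 0.03 and -0.01 with CTNNB1 siRNA and 0.69, 0.81 and 0.70 with FZD8_CRD. With Wnt3a, COL4A4 was at 0.72, 1.02 and 0.66 in untransfected cells, 0.51, 0.54 and 0.08 with control siRNA, 0.10, 0.08 and -0.02 with CTNNB1 siRNA and 0.95, 0.97 and 0.72 with FZD8_CRD. Control siRNA left 0.758 of the untreated level (-0.40, SE 0.12, adjusted p = 0.0165). For COL4A4 without Wnt3a the alternatives gave adjusted p of 0.00163 to 0.26, with the call lost without the first (0.0823) untreated array or the third (0.0973) control siRNA array. With Wnt3a it left 0.746 (-0.42, SE 0.12, adjusted p = 0.0266). For COL4A4 with Wnt3a the alternatives gave adjusted p of 0.00381 to 0.807, with the call lost without the first (0.0799) or the second (0.0818) Wnt3a array or the second (0.0524) or the third (0.155) control siRNA plus Wnt3a array. Without the third control siRNA plus Wnt3a array COL4A4 changed by -0.275. CTNNB1 siRNA with Wnt3a was -0.32 from control siRNA with Wnt3a (adjusted p = 0.0848), called with the slide as a block (0.0132) or without the third control siRNA plus Wnt3a array (0.00937), within a range of 0.00937 to 0.522.

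COL4A5 and COL4A6, chains of the trimers of smooth muscle and epithelial basement membranes, both dropped where FZD8_CRD and Wnt3a were given together. COL4A5 was at 3.96, 4.03 and 4.22 in untreated cells, 4.02, 4.02 and 4.18 with control siRNA, 4.21, 4.11 and 4.28 with CTNNB1 siRNA and 4.06, 4.14 and 3.28 with FZD8_CRD. With Wnt3a, COL4A5 was at 4.30, 4.19 and 4.13 in untransfected cells, 3.82, 3.67 and 3.68 with control siRNA, 3.83, 4.09 and 4.22 with CTNNB1 siRNA and 3.09, 2.99 and 3.28 with FZD8_CRD. The FZD8_CRD plus Wnt3a arrays were the lowest of all, with the third FZD8_CRD array next to them and the other two FZD8_CRD arrays among the untreated ones. FZD8_CRD plus Wnt3a left 0.472 of the COL4A5 level with Wnt3a alone (-1.08, SE 0.16, adjusted p = 2.47e-05). Against FZD8_CRD alone it left 0.614 (-0.70, SE 0.16, adjusted p = 0.00861), and the change was -0.98 (adjusted p = 2.52e-06) without the third FZD8_CRD array. On the third slide COL4A5 was nearly level, at 3.278 with Wnt3a and 3.282 without, so the fall lay in the other slides. For COL4A5 and Wnt3a with FZD8_CRD the alternatives gave adjusted p of 2.52e-06 to 0.554, with the call lost without the first (0.0848) or the second (0.0885) FZD8_CRD array.

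COL4A6 was at 3.82, 3.93 and 3.995 in untreated cells, 3.76, 3.74 and 3.90 with control siRNA and 3.89, 3.80 and 4.02 with CTNNB1 siRNA, besides the FZD8_CRD values above. With Wnt3a, COL4A6 was at 3.58, 3.33 and 3.79 in untransfected cells, 3.14, 3.12 and 2.98 with control siRNA, 3.19, 3.41 and 3.56 with CTNNB1 siRNA and 2.30, 2.15 and 2.21 with FZD8_CRD. In each of the 4 pairs the Wnt3a arrays lay below those without it, and the FZD8_CRD plus Wnt3a arrays lay below all others. Wnt3a left 0.379 of the COL4A6 level in the presence of FZD8_CRD (-1.40, SE 0.23, adjusted p = 0.0016), and the change was -1.85 (adjusted p = 3.13e-09) without the third FZD8_CRD array. For COL4A6 and Wnt3a with FZD8_CRD the alternatives gave adjusted p of 3.13e-09 to 0.392. FZD8_CRD plus Wnt3a left 0.393 of the level with Wnt3a alone (-1.35, SE 0.23, adjusted p = 0.000125). The other 3 Wnt3a effects on COL4A6 were -0.35 in untransfected cells (adjusted p = 0.424), -0.72 after control siRNA (0.109) and -0.52 after CTNNB1 siRNA (0.431). Without the third FZD8_CRD array, which enters them only through the shared estimate of spread, their adjusted p was 0.0406, 0.000836 and 0.0266.

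**Figure D1:**
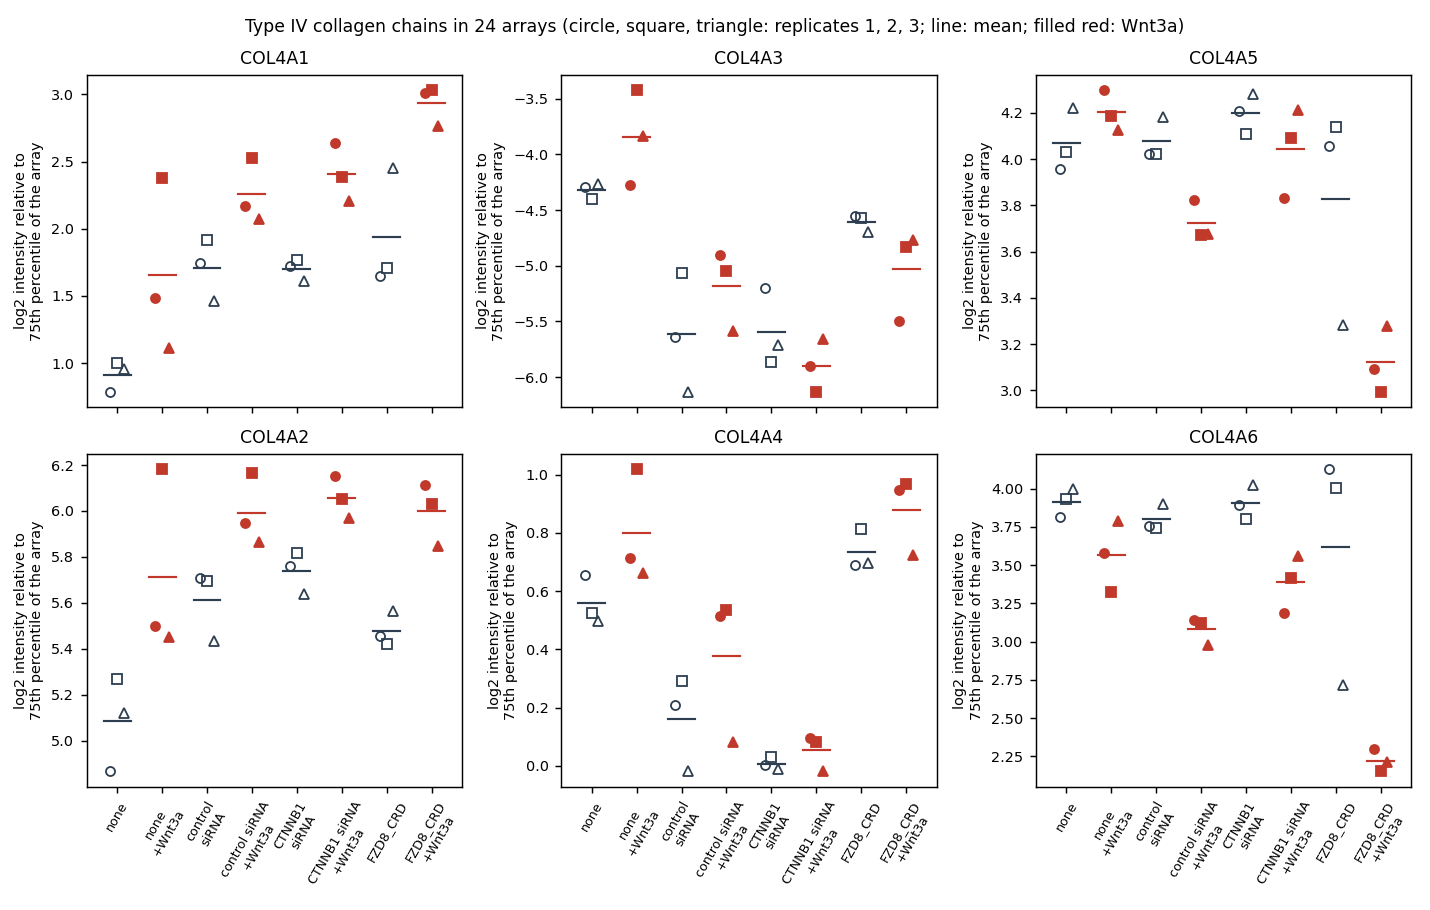
Level of each type IV chain (log2 intensity relative to the 75th percentile of the array) on the 24 arrays by condition, with a line at each mean and Wnt3a conditions in filled red. COL4A1 and COL4A2 were lowest in untreated cells and COL4A5 and COL4A6 with FZD8_CRD plus Wnt3a. COL4A3 and COL4A4 had lower means in each transfected condition than in any untransfected one, with overlap of single arrays. The third FZD8_CRD array (triangle) lay at 3.28 for COL4A5 and 2.72 for COL4A6.

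Type VI chains form beaded filaments around cells, and COL6A1 and COL6A2 were lower with FZD8_CRD. COL6A1 was at 3.40, 3.49 and 3.02 in untreated cells, 3.35, 3.37 and 3.13 with control siRNA, 3.23, 3.19 and 3.18 with CTNNB1 siRNA and 2.57, 2.56 and 2.31 with FZD8_CRD. With Wnt3a, COL6A1 was at 3.48, 3.56 and 3.13 in untransfected cells, 3.46, 3.46 and 3.39 with control siRNA, 3.29, 3.26 and 3.31 with CTNNB1 siRNA and 2.72, 2.65 and 2.57 with FZD8_CRD. FZD8_CRD left 0.565 of the COL6A1 level in untreated cells (-0.82, SE 0.11, adjusted p = 9.17e-06), a change of -0.74 (adjusted p = 7.91e-05) without the third FZD8_CRD array, and 0.597 with Wnt3a (-0.75, SE 0.11, adjusted p = 4.02e-05). For COL6A1 without Wnt3a the alternatives gave adjusted p of 4.37e-07 to 0.00904.

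COL6A2, a second chain of the same filaments, was dim and higher with Wnt3a in untransfected cells. COL6A2 was at -4.93, -5.03 and -5.21 in untreated cells, -4.66, -4.71 and -4.99 with control siRNA, -4.65, -5.39 and -5.07 with CTNNB1 siRNA and -5.27, -5.55 and -6.13 with FZD8_CRD, where it was well above background on 2 of 3 arrays. With Wnt3a, COL6A2 was at -4.03, -4.06 and -4.41 in untransfected cells, -3.85, -3.89 and -4.16 with control siRNA, -4.38, -4.33 and -4.27 with CTNNB1 siRNA and -5.37, -5.00 and -5.09 with FZD8_CRD. Wnt3a raised COL6A2 1.85-fold in untransfected cells (0.89, SE 0.21, adjusted p = 0.0208). For COL6A2 and Wnt3a alone the alternatives gave adjusted p of 0.00651 to 0.74, with the call lost without the first (0.0513) or the second (0.0665) untreated array or the first (0.0566) or the second (0.123) Wnt3a array. The Wnt3a change was 0.50 (adjusted p = 0.179) with FZD8_CRD, in overlapping groups, and 0.70 (adjusted p = 0.263) after CTNNB1 siRNA, neither called. After control siRNA the change of 0.82 had an adjusted p of 0.0508, called with the slide as a block (0.019) and, among other single arrays, without the third FZD8_CRD (0.0137) or the third Wnt3a array (0.0435), within 0.0137 to 0.508.

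FZD8_CRD left 0.504 of the COL6A2 level with Wnt3a (-0.99, SE 0.21, adjusted p = 0.00113) and lowered it without Wnt3a (-0.60, SE 0.21, adjusted p = 0.0299), where 2 of 3 FZD8_CRD arrays measured it. The change without Wnt3a was not called without the third FZD8_CRD array, at -0.36 (adjusted p = 0.186). For COL6A2 and FZD8_CRD alone the alternatives gave adjusted p of 0.00916 to 0.356, with the call lost without the first (0.0976) or the second (0.068) untreated array or the third (0.186) FZD8_CRD array. The second probe of COL6A2, well above background on all 24 arrays, gave no call: -0.23 (adjusted p = 0.555) with FZD8_CRD alone and lower in 2 of 3 slides, -0.22 (adjusted p = 0.638) without the third array, -0.51 (adjusted p = 0.181) with Wnt3a present and 0.61 (adjusted p = 0.233) for Wnt3a in untransfected cells.

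COL6A3, the large chain of type VI filaments, was well above background with control siRNA plus Wnt3a and on a single array elsewhere. It was at -5.09, -5.40 and -4.85 with control siRNA plus Wnt3a, -6.09, -6.04 and -6.13 with Wnt3a, -6.13, -6.13 and -5.96 with FZD8_CRD plus Wnt3a, where 1 of 3 arrays was well above background, and at the floor on all arrays of the other conditions. The control siRNA plus Wnt3a arrays lay above all others, and the chain passed the filter through that condition alone, so it had to differ there. Against control siRNA alone COL6A3 was at least 1.95-fold higher, against Wnt3a alone at least 1.72-fold higher, and with CTNNB1 siRNA plus Wnt3a at least 1.67-fold lower. Each bound uses the lowest well-above-background signal of a dim array.

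COL7A1, which forms the anchoring fibrils that tie epithelial basement membranes to the tissue below, was lower with FZD8_CRD. COL7A1 was at 2.35, 2.38 and 2.04 in untreated cells, 2.10, 2.12 and 1.89 with control siRNA, 2.18, 2.12 and 1.91 with CTNNB1 siRNA and 1.197, 1.003 and 0.77 with FZD8_CRD. With Wnt3a, COL7A1 was at 2.20, 2.12 and 1.86 in untransfected cells, 2.13, 1.89 and 1.83 with control siRNA, 1.95, 1.92 and 2.12 with CTNNB1 siRNA and 1.12, 1.14 and 0.96 with FZD8_CRD. FZD8_CRD left 0.416 of the untreated level (-1.27, SE 0.12, adjusted p = 4.3e-07), a change of -1.16 (adjusted p = 2.39e-06) without the third FZD8_CRD array, and 0.505 of the level with Wnt3a (-0.99, SE 0.12, adjusted p = 7.02e-06). For COL7A1 without Wnt3a the alternatives gave adjusted p of 4.05e-08 to 0.00339.

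Among the network chains of types VIII and X, COL8A1, a short-chain collagen of vessel walls and injured tissue, hinged on the third FZD8_CRD array. COL8A1 was at 3.68, 3.43 and 2.94 in untreated cells, 3.49, 3.65 and 3.101 with control siRNA and 3.40, 3.39 and 2.92 with CTNNB1 siRNA. With Wnt3a, COL8A1 was at 3.11, 3.99 and 3.09 in untransfected cells, 3.28, 3.51 and 3.02 with control siRNA, 3.28, 3.03 and 2.65 with CTNNB1 siRNA and 2.93, 2.69 and 2.43 with FZD8_CRD. The first and the second FZD8_CRD arrays were the highest of the 24 and the third overlapped the FZD8_CRD plus Wnt3a arrays. Wnt3a left 0.409 of the level with FZD8_CRD (-1.29, SE 0.34, adjusted p = 0.0233), and the change was -1.83 (adjusted p = 7.16e-05) without the third FZD8_CRD array. For COL8A1 and Wnt3a with FZD8_CRD the alternatives gave adjusted p of 7.16e-05 to 0.587, with the call lost without the first (0.197) or the second (0.168) FZD8_CRD array or the second (0.0719) or the third (0.0901) FZD8_CRD plus Wnt3a array. FZD8_CRD against untreated cells gave 0.62 (higher in 2 of 3 slides, adjusted p = 0.152) with all arrays, called without the third FZD8_CRD array at 1.16 (adjusted p = 0.00204) and with the slide as a block (0.0263), within a range of 0.00204 to 0.705.

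COL8A2, its partner chain, was called in no comparison by its brighter probe with all 24 arrays and no block; condition means ran from -4.87 with FZD8_CRD plus Wnt3a to -4.01 with FZD8_CRD. Without the third FZD8_CRD plus Wnt3a array its change with FZD8_CRD in the presence of Wnt3a was called (log2 change -1.11, adjusted p = 0.03, range over alternatives 0.000986 to 0.479). Its dimmer probe was well above background in 2 conditions, at -4.88, -4.63 and -4.84 with Wnt3a and -5.21, -4.98 and -5.42 with control siRNA plus Wnt3a. Elsewhere it was so on 1 of 3 FZD8_CRD arrays and on the first control siRNA array, which at -4.29 had the highest value of this probe. By that probe, which passed the filter through those 2 conditions and so had to differ there, COL8A2 was at least 2.44-fold higher with Wnt3a than in untreated cells and at least 2.41-fold lower with FZD8_CRD plus Wnt3a than with Wnt3a alone.

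COL10A1, the collagen of growth-plate cartilage, was highest in untransfected cells without FZD8_CRD. COL10A1 was at -0.83, -1.16 and -1.15 in untreated cells, -1.62, -1.86 and -2.19 with control siRNA, -1.75, -1.85 and -2.001 with CTNNB1 siRNA and -2.01, -2.08 and -2.64 with FZD8_CRD. With Wnt3a, COL10A1 was at -0.78, -0.70 and -0.69 in untransfected cells, -1.36, -1.70 and -1.63 with control siRNA, -1.93, -1.70 and -1.71 with CTNNB1 siRNA and -1.75, -1.79 and -1.60 with FZD8_CRD. The untreated and Wnt3a arrays lay above all other arrays, in the same conditions where hepatocyte markers were highest. Control siRNA left 0.556 of the untreated level (-0.85, SE 0.16, adjusted p = 0.000921) and 0.558 with Wnt3a (-0.84, SE 0.16, adjusted p = 0.005). For COL10A1 and transfection without Wnt3a the alternatives gave adjusted p of 0.000246 to 0.0504. For COL10A1 and transfection with Wnt3a the alternatives gave adjusted p of 0.00141 to 0.434.

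FZD8_CRD left 0.437 of the untreated COL10A1 level (-1.196, SE 0.16, adjusted p = 7.9e-06), a change of -0.996 (adjusted p = 3.86e-05) without the third FZD8_CRD array, and 0.503 of the level with Wnt3a (-0.99, SE 0.16, adjusted p = 8.02e-05). For COL10A1 and FZD8_CRD alone the alternatives gave adjusted p of 2.75e-06 to 0.00832. Wnt3a raised COL10A1 1.44-fold in the presence of FZD8_CRD (0.53, SE 0.16, adjusted p = 0.0458). The call was lost without any of 17 single arrays, with adjusted p from 0.0502 to 0.158, among them the first (0.0682), the second (0.093) and the third (0.144, log2 change 0.33) FZD8_CRD array and the first (0.109), the second (0.0927) and the third (0.158) FZD8_CRD plus Wnt3a array. The alternatives gave adjusted p of 0.0213 to 1.

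The fibril-associated collagens sit on banded fibrils, and several of them differed between the siRNA groups. COL9A2, a chain of the type IX collagen of cartilage, was at -4.27, -4.58 and -4.81 in untreated cells, -3.30, -3.70 and -3.66 with control siRNA, -4.63, -5.11 and -5.26 with CTNNB1 siRNA and -4.28, -4.89 and -5.15 with FZD8_CRD. With Wnt3a, COL9A2 was at -4.35, -4.66 and -4.81 in untransfected cells, -3.47, -3.73 and -3.46 with control siRNA, -4.67, -5.23 and -5.15 with CTNNB1 siRNA and -4.66, -5.29 and -5.07 with FZD8_CRD. Control siRNA raised COL9A2 2-fold over untreated cells (1.002, SE 0.24, adjusted p = 0.0053) and 2.07-fold with Wnt3a (1.05, SE 0.24, adjusted p = 0.012). CTNNB1 siRNA left 0.367 of the control siRNA level (-1.45, SE 0.24, adjusted p = 0.000585) and 0.362 with Wnt3a (-1.46, SE 0.24, adjusted p = 0.000399). The comparisons share control siRNA arrays.

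For COL9A2 and transfection without Wnt3a the alternatives gave adjusted p of 9.14e-05 to 0.237. For COL9A2 and transfection with Wnt3a the alternatives gave adjusted p of 0.000572 to 0.176. For COL9A2 and CTNNB1 siRNA without Wnt3a the alternatives gave adjusted p of 2.5e-06 to 0.0734. For COL9A2 and CTNNB1 siRNA with Wnt3a the alternatives gave adjusted p of 1.41e-06 to 0.0583.

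COL9A3, another type IX chain, was also highest with control siRNA. COL9A3 was at -3.28, -3.71 and -3.62 in untreated cells, -2.90, -2.99 and -2.77 with control siRNA, -3.44, -3.93 and -3.84 with CTNNB1 siRNA and -3.17, -3.66 and -3.99 with FZD8_CRD. With Wnt3a, COL9A3 was at -3.91, -3.68 and -4.23 in untransfected cells, -3.21, -3.31 and -3.42 with control siRNA, -3.60, -3.80 and -4.09 with CTNNB1 siRNA and -3.92, -4.09 and -4.67 with FZD8_CRD. Control siRNA raised COL9A3 1.57-fold (0.65, SE 0.22, adjusted p = 0.0402). For COL9A3 and transfection the alternatives gave adjusted p of 0.00576 to 0.524, with the call lost without the first (0.0882), the second (0.0642) or the third (0.123) control siRNA array or the second (0.131) or the third (0.0924) untreated array. CTNNB1 siRNA left 0.556 of the control siRNA level (-0.85, SE 0.22, adjusted p = 0.0173). For COL9A3 and CTNNB1 siRNA the alternatives gave adjusted p of 0.0017 to 0.609, with the call lost without the first (0.0548) or the third (0.0674) control siRNA array or the second (0.0774) or the third (0.076) CTNNB1 siRNA array. With the slide as a block the COL9A3 difference was also called with Wnt3a, for CTNNB1 siRNA against control siRNA (adjusted p = 0.0387, range 0.0387 to 0.572) and for control siRNA against none (0.0159, range 0.0159 to 0.322).

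COL9A1, COL14A1 and COL26A1 were called in no comparison with all 24 arrays and no block. Condition means of COL9A1 ran from -4.31 to -3.71, of COL14A1, a fibril-associated chain of tendon and skin, from -5.03 to -4.69, and of COL26A1 from -4.94 to -4.40.

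COL12A1, a fibril-associated chain of dense connective tissue, was among the bright members and stood high with CTNNB1 siRNA. COL12A1 was at 3.66, 3.54 and 3.42 in untreated cells, 3.67, 3.74 and 3.68 with control siRNA and 4.26, 4.30 and 4.31 with CTNNB1 siRNA. With Wnt3a, COL12A1 was at 3.42, 3.88 and 3.72 in untransfected cells, 3.64, 3.80 and 3.60 with control siRNA, 4.33, 4.35 and 4.20 with CTNNB1 siRNA and 3.52, 3.37 and 3.34 with FZD8_CRD. All CTNNB1 siRNA arrays lay above all control siRNA arrays, while the first and the second FZD8_CRD arrays were the highest of all and the third the lowest. CTNNB1 siRNA against control siRNA gave 0.59 (adjusted p = 0.0703) and, with Wnt3a, 0.62 (adjusted p = 0.0593), neither called with all arrays. Both were called with the slide as a block (0.0377 and 0.0319), without the second FZD8_CRD array (0.0338 and 0.0261) and without the third (0.000338 and 0.000183), within ranges of 0.000338 to 0.767 and 0.000183 to 0.767.

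Wnt3a left 0.609 of the COL12A1 level with FZD8_CRD (-0.72, SE 0.20, lower in 2 of 3 slides, adjusted p = 0.0336), with overlapping groups, and the change was -1.11 (adjusted p = 5.48e-07) without the third FZD8_CRD array. For COL12A1 and Wnt3a with FZD8_CRD the alternatives gave adjusted p of 5.48e-07 to 0.716, with the call lost without the first (0.233) or the second (0.272) FZD8_CRD array or the first (0.0698), the second (0.105) or the third (0.102) FZD8_CRD plus Wnt3a array. Without the second FZD8_CRD array this change was -0.46. FZD8_CRD gave 1.5-fold the untreated level (0.59, SE 0.20, higher in 2 of 3 slides, adjusted p = 0.0247), again with overlap, and 0.99 (adjusted p = 1.88e-06) without that array. For COL12A1 and FZD8_CRD alone the alternatives gave adjusted p of 1.88e-06 to 0.678, with the call lost without the first (0.121) or the second (0.194) FZD8_CRD array or the second (0.0536) or the third (0.0769) untreated array. Without the second FZD8_CRD array this change was 0.34. The second probe of COL12A1 stood at -0.79, -0.52 and -0.84 with FZD8_CRD and -1.90, -1.25 and -1.55 with FZD8_CRD plus Wnt3a, so on it the third FZD8_CRD array lay with the other two. That probe was lower with FZD8_CRD plus Wnt3a than with FZD8_CRD (log2 change -0.85, adjusted p = 0.0101) and than with Wnt3a (log2 change -0.87, adjusted p = 0.00123). Leaving out the third FZD8_CRD array made the first of these -0.91 (adjusted p = 0.00486). For FZD8_CRD against untreated cells it gave 0.34 (adjusted p = 0.17) with all arrays and 0.40 (adjusted p = 0.155) without that one, and for CTNNB1 siRNA against control siRNA 0.35 (adjusted p = 0.299) and, with Wnt3a, 0.39 (adjusted p = 0.242), none of them called.

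COL16A1, a fibril-associated chain of smooth muscle and skin, was highest with control siRNA plus Wnt3a and had its lowest mean with CTNNB1 siRNA. COL16A1 was at -0.43, -0.67 and -1.09 in untreated cells, -0.63, -0.60 and -0.65 with control siRNA, -1.39, -1.39 and -1.70 with CTNNB1 siRNA and -1.25, -1.39 and -0.87 with FZD8_CRD. With Wnt3a, COL16A1 was at -0.35, -0.15 and -0.66 in untransfected cells, 0.09, 0.05 and 0.08 with control siRNA, -1.08, -1.32 and -1.12 with CTNNB1 siRNA and -0.57, -0.39 and -0.61 with FZD8_CRD. CTNNB1 siRNA left 0.548 of the control siRNA level (-0.87, SE 0.16, adjusted p = 0.0011) and, with Wnt3a, 0.422 (-1.25, SE 0.16, adjusted p = 2.03e-05). For COL16A1 and CTNNB1 siRNA without Wnt3a the alternatives gave adjusted p of 0.000336 to 0.25. Wnt3a raised COL16A1 1.63-fold after control siRNA (0.70, SE 0.16, adjusted p = 0.0243). For COL16A1 and Wnt3a after control siRNA the alternatives gave adjusted p of 0.00681 to 0.378, with the call lost without the first (0.0968), the second (0.0624) or the third (0.0966) control siRNA array or the first (0.0637), the second (0.0923) or the third (0.0845) control siRNA plus Wnt3a array.

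Wnt3a raised COL16A1 1.57-fold with FZD8_CRD (0.65, SE 0.16, adjusted p = 0.0145), or by 0.80 (adjusted p = 0.00131) without the third FZD8_CRD array. For COL16A1 and Wnt3a with FZD8_CRD the alternatives gave adjusted p of 0.000339 to 0.717, with the call lost without the first (0.0964) or the second (0.123) FZD8_CRD array or the second (0.0737) FZD8_CRD plus Wnt3a array. FZD8_CRD left 0.738 of the untreated level, with overlapping groups (-0.44, SE 0.16, lower in 2 of 3 slides, adjusted p = 0.0296), and the change was -0.59 (adjusted p = 0.00667) without that array. For COL16A1 and FZD8_CRD alone the alternatives gave adjusted p of 0.000238 to 0.862, with the call lost without the first (0.185) or the second (0.0808) untreated array or the first (0.0853) or the second (0.146) FZD8_CRD array. Without the first untreated array COL16A1 changed by -0.29. The second probe of COL16A1 gave no call: CTNNB1 siRNA gave -0.43 (adjusted p = 0.463) and, with Wnt3a, -0.45 (adjusted p = 0.474), Wnt3a after control siRNA 0.33 (adjusted p = 0.784), and FZD8_CRD against untreated cells was 0.34 (adjusted p = 0.391), -0.03 (adjusted p = 0.942) without the third array, and 0.50 (adjusted p = 0.212) with Wnt3a, where the probe used gave -0.14 (adjusted p = 0.519).

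COL20A1, a fibril-associated chain of little-known role, was lower with CTNNB1 siRNA plus Wnt3a than with control siRNA plus Wnt3a, and far lower by its second probe. By the probe used, COL20A1 was at -4.24, -4.03 and -3.41 in untreated cells, -3.54, -3.56 and -3.43 with control siRNA, -4.07, -4.03 and -3.79 with CTNNB1 siRNA and -3.77, -3.27 and -3.66 with FZD8_CRD. With Wnt3a, COL20A1 was at -3.82, -2.95 and -3.38 in untransfected cells, -2.97, -3.36 and -2.83 with control siRNA, -4.10, -3.88 and -3.59 with CTNNB1 siRNA and -3.38, -3.68 and -3.26 with FZD8_CRD. CTNNB1 siRNA plus Wnt3a left 0.573 of the control level (-0.80, SE 0.23, adjusted p = 0.0273). For COL20A1 and CTNNB1 siRNA the alternatives gave adjusted p of 9.72e-06 to 0.281, with the call lost without the first (0.0884) or the third (0.119) control siRNA plus Wnt3a array or the first (0.115) or the second (0.0837) CTNNB1 siRNA plus Wnt3a array.

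The second COL20A1 probe, well above background on 18 arrays, was at -5.24, -5.45 and -5.45 in untreated cells, -4.07, -3.53 and -5.09 with control siRNA, -6.03, -6.13 and -6.13 with CTNNB1 siRNA and -5.32, -6.13 and -5.47 with FZD8_CRD. With Wnt3a that probe was at -4.53, -2.52 and -4.27 in untransfected cells, -2.52, -2.62 and -2.68 with control siRNA and -2.86, -3.11 and -3.53 with FZD8_CRD, and at the floor on all arrays with CTNNB1 siRNA. With Wnt3a, CTNNB1 siRNA was at least 9.5-fold below control siRNA by this probe (adjusted p = 6.5e-06). It was called higher with Wnt3a in untransfected cells (log2 change 1.61, adjusted p = 0.0248), after control siRNA (1.62, 0.04) and with FZD8_CRD (2.47, 0.00138, 2 of 3 FZD8_CRD arrays well above background), there by 2.56 (adjusted p = 0.000417) without the third FZD8_CRD array. In untransfected cells the second Wnt3a array, at -2.52, lay far above the first (-4.53) and the third (-4.27).

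**Figure D2:**
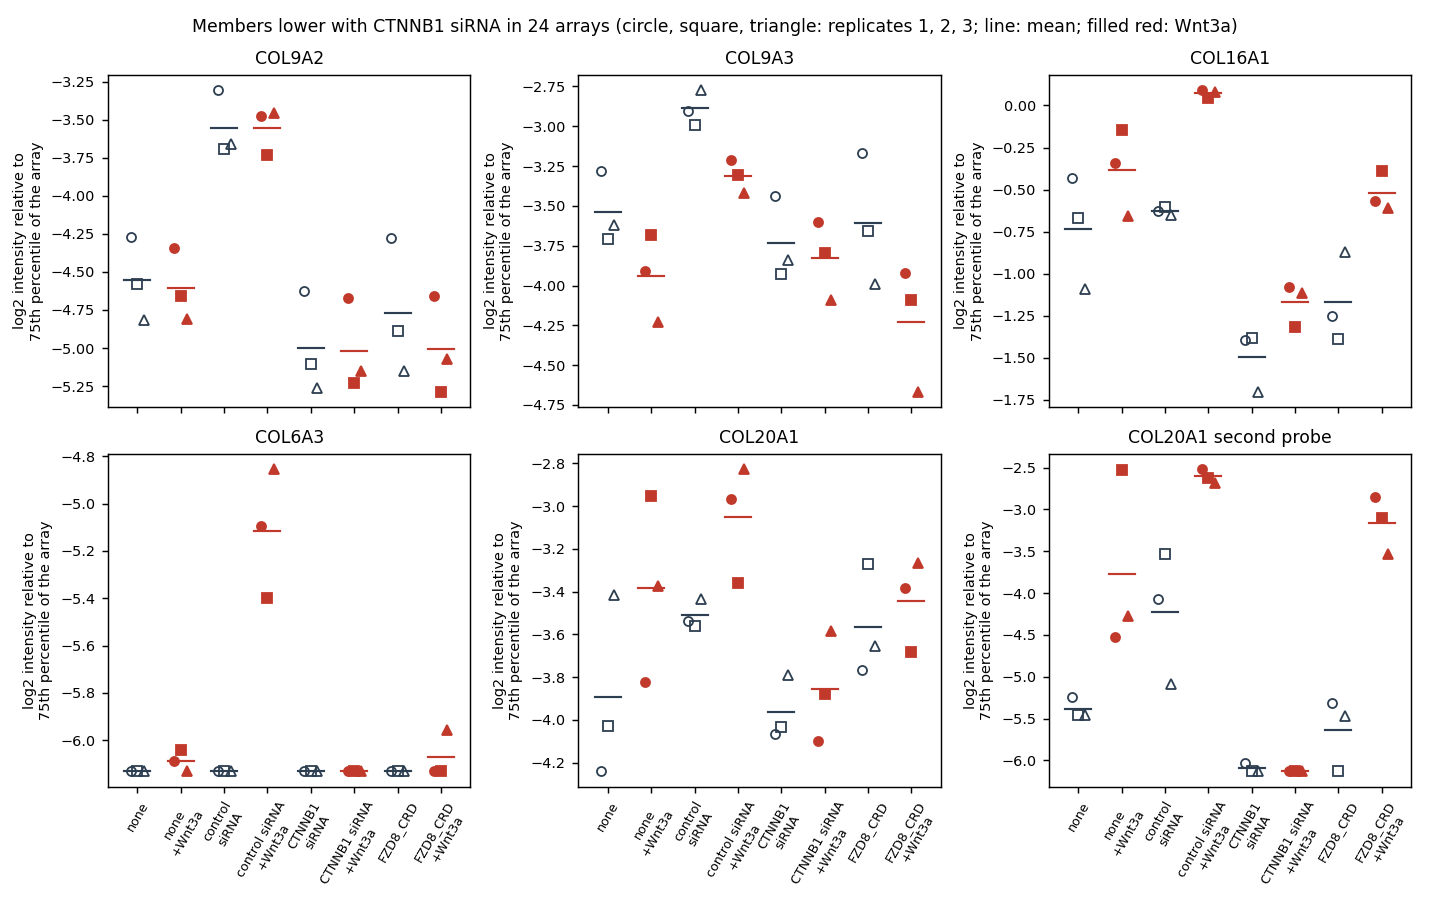
Levels of COL9A2, COL9A3, COL16A1, COL6A3 and both probes of COL20A1 (log2 relative to the 75th percentile) on the 24 arrays by condition, with a line at each mean and Wnt3a conditions in filled red. Control siRNA arrays were above CTNNB1 siRNA arrays in COL9A2, COL9A3 and COL16A1, and COL6A3 and the second COL20A1 probe were at the floor (-6.13) on all CTNNB1 siRNA plus Wnt3a arrays.

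COL21A1, a fibril-associated chain found in vessel walls, was highest in untransfected cells without FZD8_CRD. COL21A1 was at -1.52, -1.34 and -1.54 in untreated cells, -2.25, -1.93 and -2.30 with control siRNA, -1.98, -2.15 and -1.90 with CTNNB1 siRNA and -2.78, -3.13 and -2.38 with FZD8_CRD. With Wnt3a, COL21A1 was at -1.11, -1.69 and -1.15 in untransfected cells, -1.87, -2.08 and -2.03 with control siRNA, -2.43, -1.997 and -1.77 with CTNNB1 siRNA and -2.68, -2.57 and -2.07 with FZD8_CRD. FZD8_CRD left 0.407 of the untreated level (-1.30, SE 0.20, adjusted p = 4.18e-05), a change of -1.49 (adjusted p = 2.23e-05) without the third FZD8_CRD array, and 0.459 of that with Wnt3a (-1.13, SE 0.20, adjusted p = 0.000233). For COL21A1 and FZD8_CRD alone the alternatives gave adjusted p of 1.87e-05 to 0.00785.

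Control siRNA left 0.618 of the untreated COL21A1 level (-0.69, SE 0.20, adjusted p = 0.0179). For COL21A1 and transfection without Wnt3a the alternatives gave adjusted p of 0.00888 to 0.201, with the call lost without the first (0.0649) or the third (0.0711) control siRNA array or the second (0.0646) untreated array. With Wnt3a it left 0.624 (-0.68, SE 0.20, adjusted p = 0.0407), a call lost without any of 8 single arrays, among them the first (0.21) and the third (0.128) Wnt3a array and the first (0.0516), the second (0.156) and the third (0.111) control siRNA plus Wnt3a array, the other 3 being the first control siRNA (0.0507), the first CTNNB1 siRNA (0.0515) and the second CTNNB1 siRNA plus Wnt3a array (0.0506). The alternatives gave adjusted p of 0.00784 to 0.521.

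The transmembrane collagens are anchored in the cell surface, and those measured here were lower with FZD8_CRD in at least 1 of its comparisons. COL13A1, found at cell-matrix junctions, was at -2.90, -3.57 and -4.40 in untreated cells, -3.42, -3.44 and -3.22 with control siRNA, -3.72, -3.60 and -3.63 with CTNNB1 siRNA and -3.92, -3.70 and -4.10 with FZD8_CRD. With Wnt3a, COL13A1 was at -1.84, -2.76 and -2.86 in untransfected cells, -2.89, -2.66 and -2.67 with control siRNA, -2.63, -2.72 and -2.95 with CTNNB1 siRNA and -3.69, -3.53 and -3.69 with FZD8_CRD. The untreated arrays were widely spread, all Wnt3a arrays lay above them, and the FZD8_CRD plus Wnt3a arrays lay below every other array with Wnt3a. Wnt3a raised COL13A1 2.2-fold in untransfected cells (1.14, SE 0.27, adjusted p = 0.0209). For COL13A1 and Wnt3a alone the alternatives gave adjusted p of 0.00607 to 0.643, with the call lost without the first (0.0801) or the second (0.0609) Wnt3a array or the second (0.0651) or the third (0.05) untreated array. Without the third untreated array COL13A1 changed by 0.75. FZD8_CRD left 0.451 of the level with Wnt3a (-1.15, SE 0.27, adjusted p = 0.00244). Without Wnt3a the FZD8_CRD change of -0.28 was not called (lower in 2 of 3 slides, adjusted p = 0.436), while without the third untreated array it was -0.67 and called (0.0315, range over alternatives 0.0315 to 0.898).

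COL17A1, a hemidesmosome protein of basal epithelial cells, was dim and, without Wnt3a, lower after transfection and with FZD8_CRD. COL17A1 was at -4.41, -4.17 and -4.64 in untreated cells, -5.23, -4.65 and -5.35 with control siRNA, -4.82, -4.97 and -5.23 with CTNNB1 siRNA and -5.29, -4.84 and -4.82 with FZD8_CRD. With Wnt3a, COL17A1 was at -3.88, -4.44 and -3.97 in untransfected cells, -4.70, -4.68 and -4.41 with control siRNA, -4.61, -4.62 and -4.41 with CTNNB1 siRNA and -4.55, -4.55 and -4.56 with FZD8_CRD. Control siRNA left 0.629 of the untreated level (-0.67, SE 0.20, adjusted p = 0.0218). For COL17A1 and transfection the alternatives gave adjusted p of 0.0065 to 0.254, with the call lost without the first (0.0629) or the second (0.0994) untreated array or the first (0.0865) or the third (0.112) control siRNA array. FZD8_CRD left 0.67 (-0.58, SE 0.20, adjusted p = 0.027), and the change was -0.66 (adjusted p = 0.026) without the third FZD8_CRD array. For COL17A1 and FZD8_CRD the alternatives gave adjusted p of 0.0169 to 0.346, with the call lost without the first (0.0603) or the second (0.116) untreated array or the first (0.133) FZD8_CRD array. With Wnt3a present neither was called with all arrays, at -0.50 (adjusted p = 0.139) and -0.46 (adjusted p = 0.0852), and both were without the second Wnt3a array (0.0377 and 0.0264, ranges 0.0377 to 0.753 and 0.0172 to 0.539).

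COL23A1, another cell-surface collagen, was lowest with FZD8_CRD. COL23A1 was at -3.42, -3.46 and -3.70 in untreated cells, -2.98, -3.51 and -3.14 with control siRNA, -3.65, -3.96 and -4.05 with CTNNB1 siRNA and -4.13, -4.66 and -4.63 with FZD8_CRD. With Wnt3a, COL23A1 was at -3.08, -2.97 and -2.91 in untransfected cells, -3.01, -2.83 and -2.90 with control siRNA, -3.32, -3.39 and -3.11 with CTNNB1 siRNA and -4.16, -4.53 and -4.47 with FZD8_CRD. FZD8_CRD left 0.519 of the untreated level (-0.95, SE 0.17, adjusted p = 0.000158), a change of -0.87 (adjusted p = 0.00109) without the third FZD8_CRD array, and 0.379 of that with Wnt3a (-1.40, SE 0.17, adjusted p = 4.88e-06). For COL23A1 and FZD8_CRD alone the alternatives gave adjusted p of 4.55e-05 to 0.02. CTNNB1 siRNA left 0.625 of the control siRNA level (-0.68, SE 0.17, adjusted p = 0.0129). For COL23A1 and CTNNB1 siRNA the alternatives gave adjusted p of 0.00446 to 0.842, with the call lost without the first (0.0849) or the third (0.0515) control siRNA array or the second (0.0515) or the third (0.0762) CTNNB1 siRNA array. The Wnt3a effect in untransfected cells, 0.54 (adjusted p = 0.0654), was called with the slide as a block (0.0272) and without the first (0.0461) or the third (0.0492) FZD8_CRD array, within 0.0272 to 0.817.

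COL18A1, the basement membrane collagen whose end fragment is endostatin, was bright throughout and lower with FZD8_CRD. COL18A1 was at 6.14, 6.07 and 5.79 in untreated cells, 5.68, 5.66 and 5.65 with control siRNA, 5.89, 5.80 and 5.97 with CTNNB1 siRNA and 5.23, 5.17 and 5.10 with FZD8_CRD. With Wnt3a, COL18A1 was at 5.86, 5.79 and 5.96 in untransfected cells, 5.80, 5.73 and 5.81 with control siRNA, 5.53, 5.62 and 5.91 with CTNNB1 siRNA and 5.15, 5.17 and 5.16 with FZD8_CRD. FZD8_CRD left 0.56 of the untreated level (-0.84, SE 0.09, adjusted p = 8.12e-07), a change of -0.80 (adjusted p = 5.8e-06) without the third FZD8_CRD array, and 0.611 of that with Wnt3a (-0.71, SE 0.09, adjusted p = 6.46e-06). For COL18A1 and FZD8_CRD alone the alternatives gave adjusted p of 2.53e-07 to 0.00397. Control siRNA left 0.79 of the untreated level (-0.34, SE 0.09, adjusted p = 0.00839). For COL18A1 and transfection the alternatives gave adjusted p of 0.000581 to 0.223, with the call lost without the first (0.0641) untreated array.

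COL28A1, a chain with von Willebrand factor A domains known from nerve, moved most of all members and fell with both transfection and FZD8_CRD. COL28A1 was at -0.43, -0.90 and -1.47 in untreated cells, -3.15, -2.94 and -2.82 with control siRNA, -2.05, -2.39 and -2.22 with CTNNB1 siRNA and -3.61, -4.14 and -3.46 with FZD8_CRD. With Wnt3a, COL28A1 was at -0.87, -2.14 and -1.101 in untransfected cells, -2.50, -3.25 and -3.06 with control siRNA, -3.31, -2.84 and -2.31 with CTNNB1 siRNA and -4.29, -4.04 and -3.78 with FZD8_CRD. The FZD8_CRD arrays lay below all others and the untreated arrays above all transfected ones. FZD8_CRD left 0.144 of the untreated level (-2.80, SE 0.32, adjusted p = 1.48e-06), a change of -2.94 (adjusted p = 5.08e-06) without the third FZD8_CRD array, and 0.157 of that with Wnt3a (-2.67, SE 0.32, adjusted p = 3.88e-06). For COL28A1 and FZD8_CRD alone the alternatives gave adjusted p of 3.39e-08 to 0.00316. Control siRNA left 0.244 of the untreated level (-2.04, SE 0.32, adjusted p = 0.00026) and 0.337 with Wnt3a (-1.57, SE 0.32, adjusted p = 0.00633). For COL28A1 and transfection without Wnt3a the alternatives gave adjusted p of 3.74e-05 to 0.0475. For COL28A1 and transfection with Wnt3a the alternatives gave adjusted p of 0.000301 to 0.176, with the call lost without the first (0.0608) Wnt3a array or the second (0.0522) control siRNA plus Wnt3a array.

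By comparison, FZD8_CRD went with the most changes, and most of them were decreases. Without Wnt3a, COL4A1, COL4A2 and COL12A1 were higher, and COL6A1, COL6A2, COL7A1, COL10A1, COL16A1, COL17A1, COL18A1, COL21A1, COL23A1 and COL28A1 were lower. These were 3 members called higher beside 19.7% of all genes tested, and 10 called lower beside 22.2%. The median change was -0.28 over the members and -0.09 over all genes. Fibroblast marker sums were lower as well, with means of 35.6 against 59 in untreated cells, as were hepatocyte, endothelial and leukocyte sums. When the third FZD8_CRD array was left out 12 members were called, with COL4A2 and COL6A2 no longer and COL8A1 newly among them. Of all genes 40.6% were then called. With spike-in scaling the median of all genes was -0.46, and of all calls 7.49% were increases in place of 47%; relative to that median COL28A1 changed by -2.73 and COL4A1 by 1.095. With that scaling 0 members were called higher and 9 lower, and COL4A1 changed by 0.63 (adjusted p = 0.102).

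With Wnt3a present, FZD8_CRD raised COL4A1 and lowered COL4A3, COL4A5, COL4A6, COL6A1, COL6A2, COL7A1, COL10A1, COL13A1, COL18A1, COL21A1, COL23A1 and COL28A1. This was 1 member called higher beside 18.2% of all genes and 12 called lower beside 18.9%. The median change was -0.71 over the members and -0.08 over all genes, and only 4 of the 27 members had a positive change. Mean fibroblast marker sums were 38.7 here against 93.4 with Wnt3a alone, and hepatocyte (390 against 753), endothelial and leukocyte sums were lower too. The biliary and progenitor sum was higher, at 444 against 356. Each of these 13 calls passed under every alternative that held the gene, the deposited table lacking COL4A3 and COL6A2, and with every single array left out. Without the third FZD8_CRD array COL8A1 and COL12A1 were called lower as well, for 15 members, when 39.6% of all genes were called. With the slide as a block COL8A1 (adjusted p = 0.014), COL8A2 (0.00639), COL9A2 (0.0228) and COL26A1 (0.0271) joined for 17. Over all genes 11950 were then called in place of 9162. Over the alternatives adjusted p of these ran from 0.014 to 0.558 for COL8A1, 0.000986 to 0.479 for COL8A2, 0.0228 to 0.617 for COL9A2 and 0.0271 to 0.692 for COL26A1. With spike-in scaling the median of all genes was -0.16 and 28.6% of all calls were increases in place of 49%; relative to it COL4A1 changed by 1.34 and COL28A1 by -2.60.

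**Figure D3:**
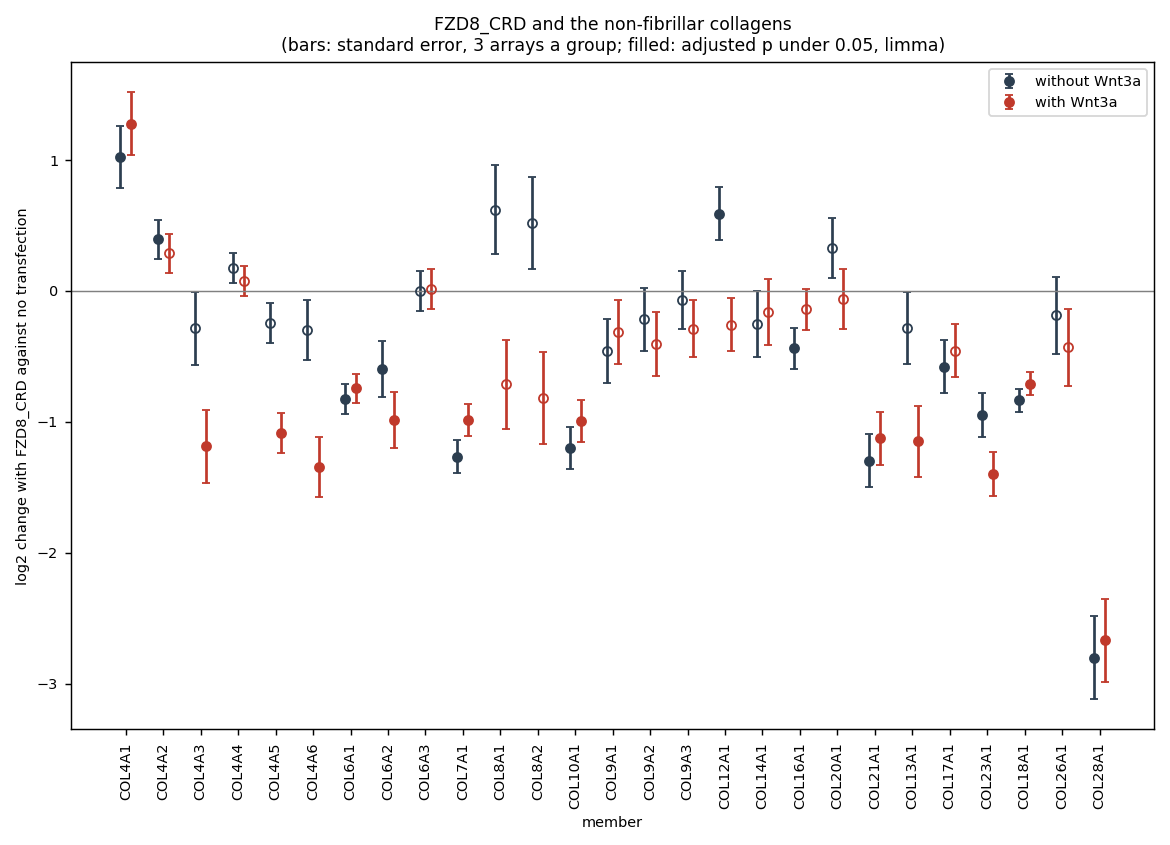
Log2 change with FZD8_CRD for the 27 tested members without Wnt3a (dark) and with Wnt3a (red), with standard errors, filled where the adjusted p was under 0.05. COL28A1 had the lowest values (-2.80 and -2.67), COL4A1 the highest (1.02 and 1.28), and COL4A5 and COL4A6 were called with Wnt3a.

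Transfection with control siRNA raised COL4A1, COL4A2, COL9A2 and COL9A3 over untreated cells and lowered COL4A3, COL4A4, COL10A1, COL17A1, COL18A1, COL21A1 and COL28A1. These were 4 members higher beside 12.3% of all genes and 7 lower beside 10.1%, with a median of -0.004 over members and -0.03 over all genes. The count of 11 became 6 without the first untreated array, 6 without the first control siRNA array and 7 without the third control siRNA array. Spike-in scaling put the median of all genes at -0.31, 7.75% of calls were increases in place of 54.9%, and relative to that median COL9A2 changed by 1.03 and COL28A1 by -2.01.

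With Wnt3a in both groups, transfection raised COL6A3 and COL9A2 and lowered COL4A3, COL4A4, COL10A1, COL21A1 and COL28A1. These were 2 members higher beside 5.44% of all genes and 5 lower beside 3.59%, with medians of -0.11 and -0.02; COL6A3 had to differ, which leaves 1 higher. The count of 7 became 4 without the first Wnt3a array and 4 without the second control siRNA plus Wnt3a array. It became 12 without the second Wnt3a array and 10 without the third FZD8_CRD array, the last with 12% of all genes called. Without the second Wnt3a array COL4A1 (log2 change 0.96, adjusted p = 0.00291) and COL4A2 (0.52, 0.00431) were among the added calls. With the slide as a block COL9A3 and COL16A1 were added for 9 members, while over all genes 3759 were called in place of 2227. With spike-in scaling the median of all genes was 0.25 and increases were 49.5% of calls in place of 60.3%; relative to it COL9A2 changed by 1.08 and COL28A1 by -1.54.

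CTNNB1 siRNA lowered COL9A2, COL9A3, COL16A1 and COL23A1 relative to control siRNA and, with Wnt3a, COL6A3, COL9A2, COL16A1 and COL20A1. Without Wnt3a this was 0 members higher beside 4.4% of all genes and 4 lower beside 6.16%, with medians of 0.02 and -0.03. With Wnt3a it was 0 higher beside 4.08% and 4 lower beside 6.5%, with medians of -0.13 and -0.01; COL6A3 had to differ, which leaves 3 lower. In limma 7 and 9 members had an unadjusted p under 0.05 in these comparisons, and the share of all genes under that looser limit was not counted. The count without Wnt3a became 2 without the first or the third control siRNA array and 2 without the second or the third CTNNB1 siRNA array. The count with Wnt3a became 7 with the slide as a block, which added COL4A4, COL9A3 and COL12A1. Over all genes that block called 3846 in place of 2608. COL12A1, without the third FZD8_CRD array, was called higher in both comparisons and COL4A5 (0.32, adjusted p = 0.0305) in that with Wnt3a. Of all genes 13.5% were then called without Wnt3a and 13.1% with it. Fibroblast marker sums were lower with CTNNB1 siRNA as well, with 6 and 5 of the 10 tested markers called lower. Spike-in scaling gave medians of all genes of 0.05 and -0.21, and with Wnt3a 6.1% of calls were increases in place of 38.6%; relative to it COL16A1 changed by -1.24 and COL9A2 by -1.46.

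Wnt3a raised COL4A2, COL6A2 and COL13A1 in untransfected cells. This was 3 members higher beside 2.99% of all genes and 0 lower beside 2.61%, with medians of 0.15 over members and 0.01 over all genes. The count became 1 without the first untreated, the first Wnt3a or the second untreated array and 0 without the second Wnt3a array. It became 6 without the third FZD8_CRD array, when 9.26% of all genes were called. With the slide as a block it became 5, while over all genes 2824 were called in place of 1381. With spike-in scaling the median of all genes was -0.37, 8.63% of calls were increases in place of 53.4%, no member was called, and relative to that median COL13A1 changed by 1.12 and COL6A2 by 0.87. Mean fibroblast marker sums were also higher with Wnt3a, at 93.4 against 59 in untransfected cells and 60.3 against 44.9 after control siRNA. After control siRNA, Wnt3a raised COL6A3 and COL16A1, 2 members beside 1.09% of all genes, and lowered 0 beside 1.02%, with medians of 0.22 and 0.02; COL6A3 had to differ there, which leaves 1. That count became 1 without any single control siRNA or control siRNA plus Wnt3a array. It became 4 without the second Wnt3a array, which added COL4A2 (0.38, adjusted p = 0.043) and COL6A2. It became 5 without the third FZD8_CRD array, when 5.11% of all genes were called. With spike-in scaling the median of all genes was 0.18 and 96.4% of calls were increases in place of 51.7%; relative to it COL16A1 changed by 0.68.

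After CTNNB1 siRNA, 0 members were called with Wnt3a in limma, beside 0.0365% of all genes called higher and 0.00406% lower. There 8 members had an unadjusted p under 0.05, and the share of all genes under that looser limit was not counted. Without the third FZD8_CRD array 1 member, COL4A6, was called lower, when 0.58% of all genes were called. The highest values there were 0.88 for COL13A1 and 0.71 for COL4A1, with medians of 0.04 over the members and 0.03 over all genes, and with quantile normalization 71.4% of all calls were increases in place of 90%. With FZD8_CRD, Wnt3a raised COL4A1, COL4A2, COL10A1 and COL16A1, 4 members beside 4.36% of all genes, and lowered COL4A5, COL4A6, COL8A1 and COL12A1, 4 beside 3.94%, with medians of 0.09 and 0.02. That count of 8 became 1 without the first or the second FZD8_CRD array, and 4, 2 and 5 without the first, the second and the third FZD8_CRD plus Wnt3a array. It stayed 8 without the third FZD8_CRD array, where COL10A1 was lost and COL9A3 (-0.81, adjusted p = 0.0169) added, and 19.9% of all genes were called. With the slide as a block 10 were called, COL8A2 (adjusted p = 0.0183) and COL9A3 (0.0185) being added, while over all genes 3299 were called in place of 2044. With spike-in scaling increases were 69.1% of calls in place of 52.5%. Over the alternatives adjusted p ran from 0.0169 to 0.742 for COL9A3 and from 0.0183 to 0.805 for COL8A2.

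**Figure D4:**
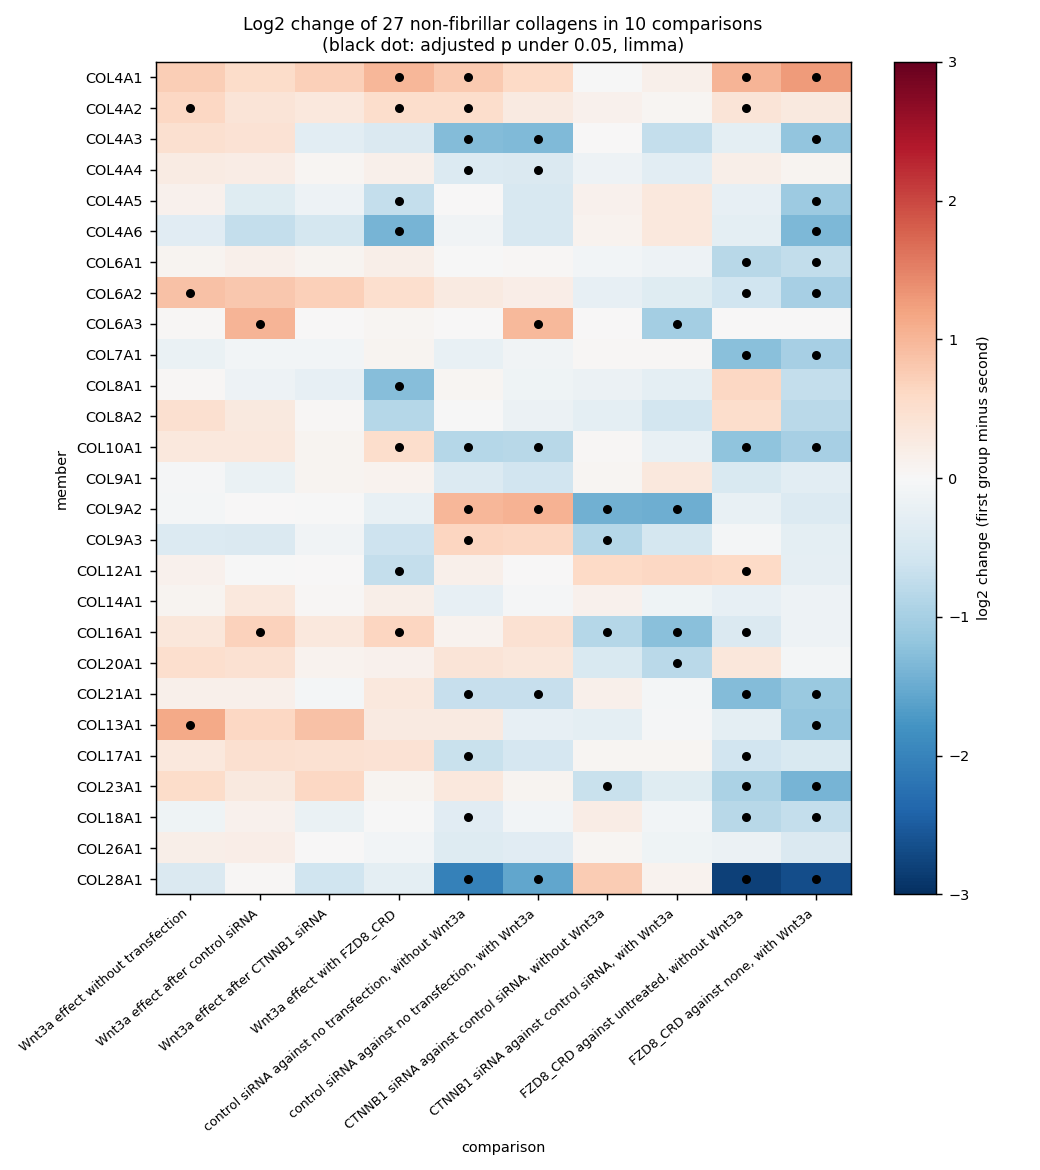
Log2 change (first group minus second) of the 27 tested members in 10 comparisons, ordered by collagen type, with black dots where the adjusted p was under 0.05. COL6A3 colours are limits. The columns for FZD8_CRD hold 13 dots each, most of them on blue cells.

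Wnt3a effects were also compared between states. For CTNNB1 siRNA against control siRNA, 0 members were called in limma beside 0.0162% of all genes, and 2 had an unadjusted p under 0.05. For FZD8_CRD against none, 0 were called beside 0.073%, and 7 had an unadjusted p under 0.05. The share of all genes with an unadjusted p under 0.05 was not counted for either. Spike-in scaling put the medians of all genes at -0.28 and 0.31 here. Without the third FZD8_CRD array 4 members were called, when 7.75% of all genes were, and without the third untreated array COL4A5 alone was called (-0.92, adjusted p = 0.0447).

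The array left out here is the third FZD8_CRD array, the lowest of its condition for COL4A5, COL4A6, COL8A1 and COL12A1. Leaving it out had to enlarge their differences, so the calls below depend on that choice of array. COL4A5 differed by -1.11 (SE 0.14, adjusted p = 7.19e-05) without that array and by -0.84 (SE 0.22, lower in 2 of 3 slides, adjusted p = 0.118) with it. COL4A6 differed by -1.50 (SE 0.16, adjusted p = 7.54e-06) without that array and by -1.05 (SE 0.32, adjusted p = 0.169) with it. COL8A1 differed by -1.88 (SE 0.36, adjusted p = 0.00302) without that array and by -1.34 (SE 0.48, adjusted p = 0.231) with it. COL12A1 differed by -1.25 (SE 0.14, adjusted p = 2.25e-05) without that array and by -0.85 (SE 0.29, adjusted p = 0.204) with it. Adjusted p over the alternatives ran from 7.19e-05 to 1 for COL4A5, 7.54e-06 to 1 for COL4A6 and 2.25e-05 to 1 for COL12A1.

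**Figure D5:**
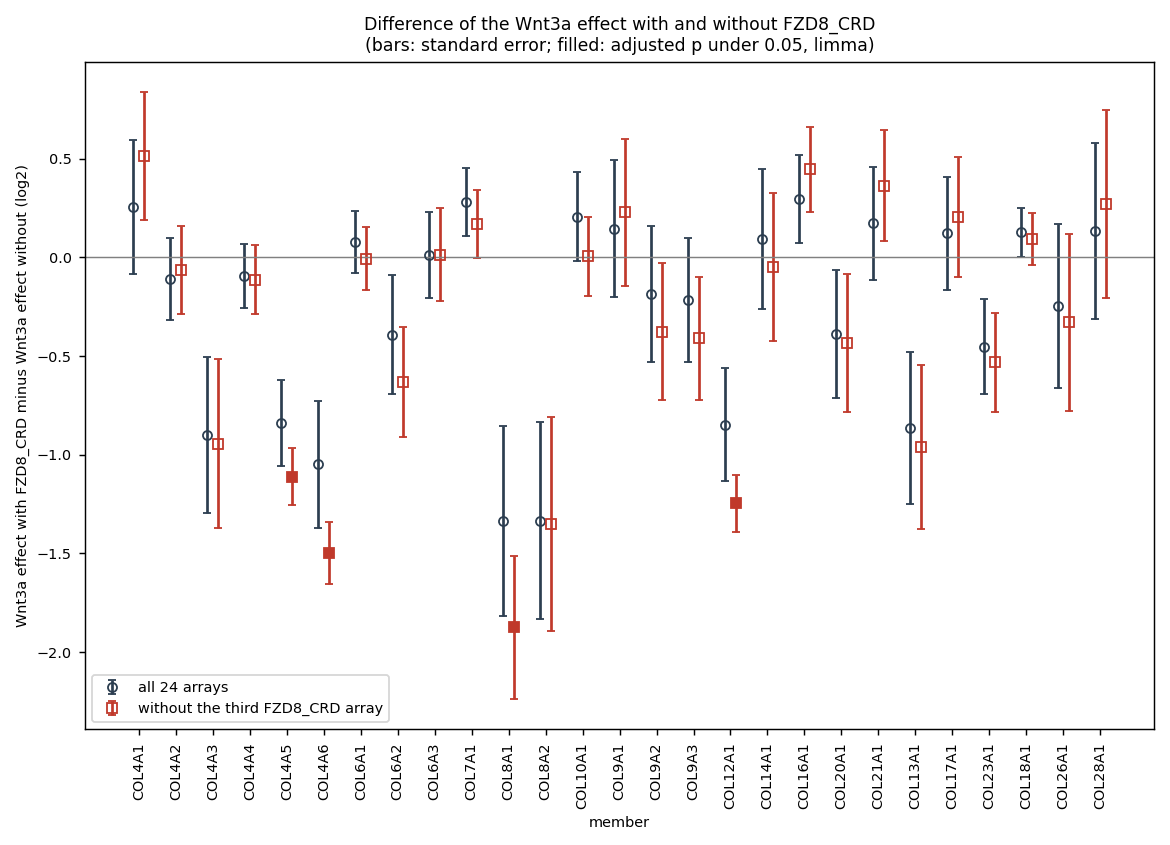
Wnt3a effect with FZD8_CRD minus Wnt3a effect without it (log2) for the 27 tested members, with standard errors, from all 24 arrays (dark circles) and without the third FZD8_CRD array (red squares), filled where the adjusted p was under 0.05. COL4A5, COL4A6, COL8A1 and COL12A1 were called without that array, at -1.11, -1.50, -1.88 and -1.25. Each was lowest on that array among the FZD8_CRD arrays, so leaving it out had to enlarge the difference.

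The other genes of collagen assembly were taken from lists of matrix partners, enzymes and fibrillar chains. Of 21 tested basement membrane partners 5 rose and 7 fell with FZD8_CRD in the presence of Wnt3a, beside 18.2% and 18.9% of all genes, among them PXDN, which cross-links the type IV network (1.32, adjusted p = 0.000249), NID2, a linker of type IV and laminin networks (1.09, 7.53e-05), and the laminin chain LAMA4 (-1.03, 1.87e-05). Wnt3a in untransfected cells raised 3 of them (2.99% of all genes), PXDN (1.16, adjusted p = 0.00958), SPARC, which binds collagen (0.85, 0.000259), and NTN4. CTNNB1 siRNA with Wnt3a lowered 4 (6.5% of all genes), with FBLN2, a fibulin, at -1.32 (adjusted p = 0.00237) and SPARC at -0.97 (7.38e-06), and raised 1 (4.08%), NID1 (0.48, 0.0127).

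Of 20 tested genes of chain modification and secretion 5 rose and 2 fell with FZD8_CRD plus Wnt3a against Wnt3a, beside the same shares, with the cross-linking enzymes LOXL1 at 1.91 (adjusted p = 0.00089), LOXL3 at 0.99 (0.00514) and LOXL2 at -0.92 (1.82e-05). CTNNB1 siRNA with Wnt3a lowered 6 and raised 0 (6.5% and 4.08% of all genes), led by the collagen chaperone FKBP10 (-1.78, adjusted p = 7.85e-05). Of 9 tested fibrillar collagens 0 rose and 5 fell with FZD8_CRD plus Wnt3a, beside the same shares, with a median of -0.95 beside -0.71 for the non-fibrillar members.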

How the data were processed

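Per the file headers, intensity values are background-subtracted one-colour signals that Agilent Feature Extraction 10.7.1.1 computed, while the label notes give version 10.7.3.1. The log2 values in the deposited table were made by the authors, who scaled each array to its 75th percentile, and the values are centred on each probe's median. Here log2 processed intensity was scaled to each array's 75th percentile and floored at a common detection limit, outlier spots were dropped, and probes had to be well above background in every replicate of some condition. The probe with the highest mean stood for its gene. Testing used an 8-condition linear model (limma 3.58.1, R 4.3.3; moderated t-tests, mean trend, Benjamini-Hochberg adjustment over all 24647 genes). Figures used Python 3.11.15 and matplotlib 3.10.9. Normexp was run on median signals, since the files hold no mean signal. The main model did not pair arrays by slide, and the replicate block was an alternative. Of 84 pairs of arrays on the same slide, 82 correlated above 0.1 in their residuals (mean 0.384, lowest -0.056, other pairs -0.191). The partner genes named are a choice among those called. Members and lists were chosen with earlier results of these data known.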

Additional observations from a re-analysis of the deposited data

Results flagged for a closer look

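In cells with CTNNB1 siRNA the Wnt3a effect on RNF43, a Wnt feedback inhibitor, was lower than with control siRNA by a log2 difference of -1.231 (SE 0.145, limma adjusted p = 0.00129). For LUM, a matrix proteoglycan, the Wnt3a effect with FZD8_CRD differed from that without it by -1.422 (SE 0.266, adjusted p = 0.0467).

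Some members had a second probe that gave calls the brighter probe did not give. The second probe of COL12A1 changed by -0.873 with FZD8_CRD in the presence of Wnt3a (limma adjusted p = 0.00123). The second probe of COL8A2 changed by 1.349 with Wnt3a in untransfected cells and by -1.349 with FZD8_CRD in the presence of Wnt3a, but one group of each pair was at the floor, so these are only limits of at least 2.44-fold and 2.41-fold, and the probe passed the filter through its high conditions. The second probe of COL20A1 changed with Wnt3a by 1.607 in untransfected cells (adjusted p = 0.0248), 1.623 after control siRNA (0.04) and 2.474 with FZD8_CRD (0.00138), and by 1.152 with control siRNA against untreated cells (0.0419). With CTNNB1 siRNA against control siRNA it was at -1.868, a limit in part since 1 of 3 CTNNB1 siRNA arrays was well above background, as were 2 of 3 FZD8_CRD arrays for the value of 2.474.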

How the results depend on the processing

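No called member result was reversed by any alternative. Of the 65 called member results, quantile normalization kept 58, normexp 59, no filter on dim probes 53, the mean of the probes 60, a fit of only the compared conditions 39, the study's thresholds 56 and spike-in scaling 32. With the replicate number as a block, paired by slide, all 65 were kept.

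The number of all genes called moved with these settings as well. A shift in a count of members below is therefore not by itself a result about the collagens. Wnt3a in untransfected cells called 3 members (1381 of all genes), against 0 with spike-in scaling (278), 0 with only the compared conditions (2) and 5 with the replicate block (2824). Leaving out arrays gave 0 to 7 members. Wnt3a after control siRNA called 2, against 1 with the deposited value table, 0 with spike-in scaling, 1 with no filter on dim probes, 6 with only the compared conditions and 4 with the study's thresholds; leaving out arrays gave 0 to 5. Wnt3a after CTNNB1 siRNA called 0, against 4 with the study's thresholds, and leaving out arrays gave 0 to 1. Wnt3a with FZD8_CRD called 8, against 1 with spike-in scaling, 4 with no filter on dim probes and 0 with only the compared conditions; leaving out arrays gave 0 to 8.

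Control siRNA against no transfection called 11 members, against 4 with spike-in scaling, and leaving out arrays gave 2 to 11. With Wnt3a it called 7, against 2 with spike-in scaling and 0 with only the compared conditions, and leaving out arrays gave 0 to 12. CTNNB1 siRNA against control siRNA called 4, against 0 with spike-in scaling, and leaving out arrays gave 1 to 5. With Wnt3a it called 4, against 7 with the replicate block, and leaving out arrays gave 2 to 6. FZD8_CRD called 13 without Wnt3a, with 9 to 13 when arrays were left out, and 13 with Wnt3a, with 13 to 15. The replicate block changed no other call beyond the additions named in the results.

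For the difference of the Wnt3a effect between CTNNB1 siRNA and control siRNA 0 members were called, against 1 with no filter on dim probes and 1 with the study's thresholds. For that with and without FZD8_CRD 0 were called, against 3 with the study's thresholds, and leaving out arrays gave 0 to 5.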

Other observations

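The design limits these results. HepaRG is 1 line, and each condition had 3 arrays. The transfected cells differ from the untransfected ones in handling as well as in siRNA. Many calls lie near the threshold, the third FZD8_CRD array moves the count for several comparisons, and spike-in scaling kept 32 of 65 calls. Array RNA levels say nothing about secreted collagen, and probes not well above background in a group give only limits there.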
